A study of Mus musculus with 9 samples.

Results

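A set of 10 genes of the stress axis and of the neuroendocrine hormones of the hypothalamus was followed in the brain tissue of sevoflurane-treated mice. They were chosen by name from the 49585 genes of the deposited table. The 10 genes are Crh, Crhbp, Crhr1, Avp, Oxt, Oxtr, Trh, Ghrh, Nr3c1 and Nr3c2. All libraries came from male wild type C57BL/6J mice, an inbred laboratory strain, aged 8 to 15 weeks. Control (CTRL) mice moved freely for 120 min without sevoflurane, an inhaled anesthetic. The 0.7 MAC mice breathed 0.7 MAC sevoflurane for 120 min and kept regular breathing, or eupnea, and the 2.0 MAC mice breathed 2.0 MAC for 30 min and then 0.7 MAC for 90 min, which served as a model of gasping. The methods describe intubated mice that breathed sevoflurane under hyperoxia, and leave it unstated if control mice were intubated or breathed added oxygen, so the anesthetic, the intubation and the gas cannot be told apart in comparisons with control. Mice were perfused to remove blood before dissection. MAC is the minimum alveolar concentration, the unit in which the dose of an inhaled anesthetic is given. Each group had 3 libraries, and the labels do not say whether the libraries are from separate mice, so p-values reflect only the spread of these libraries, which may be technical. The 2.0 MAC mice were sampled after 90 min at the lower dose, so the dose itself and the course of exposure cannot be told apart.

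The values were exon-based reads per gene, scaled here to a common library total (CPM) with TMM factors, which align the typical gene between libraries. The libraries held 5321491 to 7178568 such reads. Of the 10 genes, 9 passed the filter on low counts and were tested among 14140 genes with edgeR's quasi-likelihood test, and a gene was called higher or lower at a Benjamini-Hochberg adjusted p under 0.05. The tissue was labelled hypothalamus. It was prepared as the region left after the cortex, cerebellum and olfactory bulb were removed, whereas the extraction text of the labels names whole brain and neurospheres. Markers of several regions were present. In the control group 22 hypothalamus markers (such as Pmch, Agrp, Npy, Otp, Sim1 and Nkx2-1) summed to 110 to 119 CPM, 14 cortex and hippocampus markers to 912 to 1341 CPM, 12 striatum markers to 1201 to 1509 CPM and 15 hindbrain markers to 223 to 311 CPM.

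In the stress axis, neurons of the paraventricular nucleus release corticotropin-releasing hormone (Crh) and vasopressin (Avp) to the pituitary, where both drive the secretion of corticotropin and, through it, of adrenal corticosteroids. The steroids act back on the brain through the glucocorticoid receptor (Nr3c1) and the mineralocorticoid receptor (Nr3c2). Magnocellular neurons of the paraventricular and supraoptic nuclei also make vasopressin and oxytocin (Oxt) for release into the blood, where vasopressin retains water and oxytocin acts on the uterus and the mammary gland. Trh encodes thyrotropin-releasing hormone, which drives the thyroid axis, and Ghrh encodes growth hormone-releasing hormone.

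Avp and Oxt lie close together on chromosome 2 and their levels were both higher in the 2.0 MAC group, so the bases before their starts are shown with those of Trh. Of the 10 genes, 8 have an entry in the table of promoter windows (RefSeq, build GRCm38.p6), with 9 windows in all since Ghrh has more than one. The 250 bases before the start were searched on both strands for TGACGTCA (the cAMP response element), AGAACA (a half-site of the glucocorticoid response element), TGANTCA (the AP-1 motif, N being any base) and GCGTGGGCG (the Egr motif). Capitals mark a match, and each run reads 5′ to 3′ along the gene's strand.
Avp, chr2:130582589-130582838, minus strand: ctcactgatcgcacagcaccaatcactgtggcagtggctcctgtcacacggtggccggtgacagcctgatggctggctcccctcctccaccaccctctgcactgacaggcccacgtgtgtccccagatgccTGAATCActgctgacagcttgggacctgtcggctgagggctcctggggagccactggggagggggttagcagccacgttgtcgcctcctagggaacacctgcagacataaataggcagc
Oxt, chr2:130575919-130576168, plus strand: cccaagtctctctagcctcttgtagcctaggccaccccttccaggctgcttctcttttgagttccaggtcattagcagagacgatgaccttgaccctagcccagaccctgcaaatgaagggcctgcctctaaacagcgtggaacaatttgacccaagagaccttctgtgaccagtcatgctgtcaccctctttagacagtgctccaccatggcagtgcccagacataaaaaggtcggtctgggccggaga
Trh, chr6:92244651-92244900, minus strand: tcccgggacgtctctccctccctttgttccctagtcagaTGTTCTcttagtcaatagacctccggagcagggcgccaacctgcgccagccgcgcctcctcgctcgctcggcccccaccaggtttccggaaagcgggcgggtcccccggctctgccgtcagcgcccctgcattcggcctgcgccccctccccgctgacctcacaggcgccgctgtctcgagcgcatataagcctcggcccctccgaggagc
The Avp window held 1 AP-1 match, whose first base lies 119 bases before the start, and the Trh window held 1 glucocorticoid half-site in the reverse direction, 211 bases before the start. None of these letters was found in the Oxt window or in the windows of Crhbp, Crhr1, Ghrh, Nr3c2 and Oxtr. Among 32851 windows of the same length, 6.75% held the AP-1 letters, 16.1% the half-site, 1.55% the cAMP response element and 0.536% the Egr letters. A match describes the letters only.

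**Figure D1:**
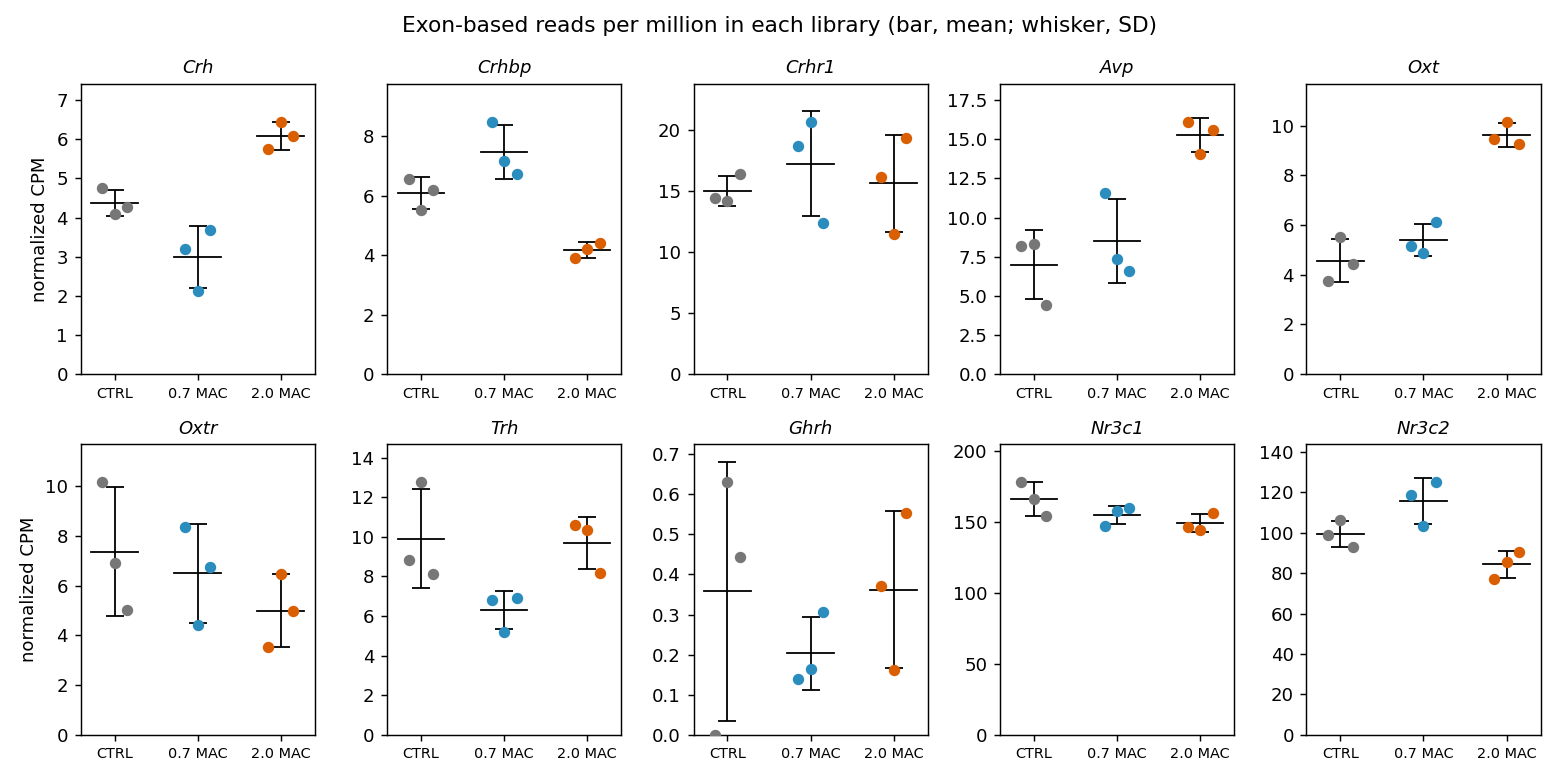
Normalized CPM of the 10 genes (vertical axes, each from 0) in the 9 libraries, by group from control to 2.0 MAC; points are libraries, bars the means and whiskers the SD of 3 libraries. Avp and Oxt of the 2.0 MAC group sit above every other library, while Crhbp and Nr3c2 of that group sit below every other library.

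Per kilobase of exon, the authors' RPKM ranked the receptors first in the control group. Nr3c1 had 7.45 ± 0.376 RPKM and Nr3c2 5.23 ± 0.234 RPKM (SD, n = 3 here and below), followed by Avp with 4.08 ± 1.11, Oxt with 2.90 ± 0.559, Trh with 2.38 ± 0.585 and Crhr1 with 2.03 ± 0.209 RPKM. Crhbp had 1.20 ± 0.104 RPKM, Crh 1.10 ± 0.0741, Oxtr 0.510 ± 0.170 and Ghrh 0.180 ± 0.162. Avp and Oxt, Oxt and Trh, Trh and Crhr1, and Crhbp and Crh overlapped as neighbours in this order, and the other neighbours did not. In the 2.0 MAC group Avp stood first, with 9.43 ± 0.683 RPKM, above Nr3c1 with 7.06 ± 0.305 RPKM, and Oxt with 6.44 ± 0.178 RPKM stood above Nr3c2 with 4.70 ± 0.312 RPKM, and neither pair overlapped. In the 0.7 MAC group the order began as in control, with Nr3c1 at 6.85 ± 0.139, Nr3c2 at 6.04 ± 0.678 and Avp at 5.07 ± 1.56 RPKM. Avp and Nr3c2 overlapped there, as did Avp and Nr3c1.

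Between 2.0 MAC and 0.7 MAC, which differ in the initial 30 min, 3 of the 9 tested genes were higher in the 2.0 MAC group (Crh, Avp and Oxt) and 2 were lower (Crhbp and Nr3c2). Over all tested genes 5.98% were called higher and 8.73% lower, or 845 and 1235 genes, against 1705 and 723 genes with limma on the log2 RPKM, which is not scaled by TMM. The median log2 fold change of the 9 was -0.05, against 0.00 over all tested genes. Between 2.0 MAC and control, Avp and Oxt were higher (3.36% of all genes) and none of the 9 was lower (6.42%). With edgeR, 3 of the 9 were higher and 3 lower in that comparison at an unadjusted p under 0.05, as were 10.2% and 12.5% of all genes, and DESeq2 called 2 of the 9 in all. Between 0.7 MAC and control 0 of the 9 were called (0.884% of all genes higher and 0.743% lower), 1 was higher and 2 were lower at an unadjusted p under 0.05, as were 8.18% and 7.28% of all genes, and DESeq2 called 0 of the 9. Groups whose libraries did not overlap were also counted. Between 2.0 MAC and 0.7 MAC 4 of the 9 lay wholly higher (14.9% of all genes) and 2 wholly lower (16.4%), between 2.0 MAC and control 3 higher (13.1%) and 2 lower (15.2%), and between 0.7 MAC and control 1 higher (8.8%) and 2 lower (9.25%). The 3 comparisons share libraries, so they are not independent of each other.

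**Figure D2:**
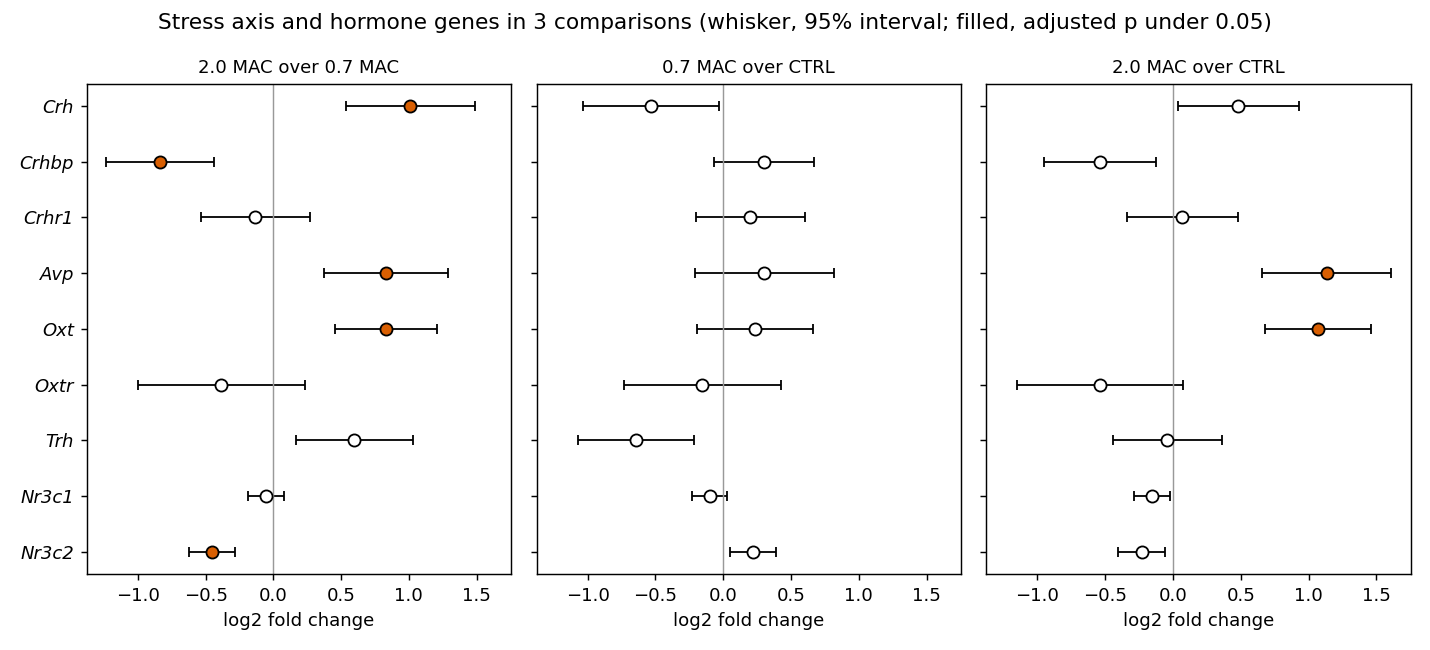
Log2 fold changes of the 9 tested genes (horizontal axis) in the 3 comparisons, with 95% intervals as whiskers; filled points have an adjusted p under 0.05. Between 2.0 MAC and 0.7 MAC, Crh at 1.01, Avp at 0.83 and Oxt at 0.83 lie right of 0 and Crhbp at -0.84 and Nr3c2 at -0.45 lie left of it.

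Crh (ENSMUSG00000049796, GRCm38 chromosome 3, 19693401 to 19695396) is a small gene with 2 exons. It had 5.75, 6.46 and 6.08 CPM in the 2.0 MAC libraries, against 3.20, 2.12 and 3.68 CPM in the 0.7 MAC libraries, from 31, 40 and 44 reads against 23, 13 and 24 reads. The groups did not overlap, and replicate 2 of the 0.7 MAC group was the lowest library. The log2 fold change was 1.01 (standard error, SE, 0.22, adjusted p = 0.00502). Control had 4.75, 4.09 and 4.28 CPM, between the sevoflurane groups. Crh was not called between 2.0 MAC and control (0.48, 95% interval 0.03 to 0.93, adjusted p = 0.179) or between 0.7 MAC and control (-0.53, interval -1.03 to -0.03, adjusted p = 0.287). The libraries did not overlap in either comparison. Of all tested genes, 13.1% lay wholly higher at 2.0 MAC than in control and 9.25% wholly lower at 0.7 MAC than in control.

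Crhbp (ENSMUSG00000021680, chromosome 13, 95431371 to 95444831) encodes the secreted protein that binds Crh and limits its access to receptors. It had 3.90, 4.196 and 4.42 CPM in the 2.0 MAC libraries, against 8.50, 7.17 and 6.74 CPM in the 0.7 MAC libraries. Each 2.0 MAC library was lower than each 0.7 MAC library, with a log2 fold change of -0.84 (SE 0.19, adjusted p = 0.00564). The control libraries had 6.55, 5.51 and 6.20 CPM, above the 2.0 MAC libraries and below the 0.7 MAC libraries. Against control the change was not called at 2.0 MAC (-0.54, interval -0.95 to -0.12, adjusted p = 0.10) or at 0.7 MAC (0.30, interval -0.07 to 0.67, adjusted p = 0.446).

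Crh and Crhbp were called in opposite directions, and their ratio within a library does not depend on how libraries are scaled. The ratio can still depend on which regions a tissue piece held, and markers of brain regions moved between the same groups (below). The part of tissue make-up in the ratio was not tested. There were 1.48, 1.54 and 1.38 Crh reads per Crhbp read in the 2.0 MAC libraries, against 0.377, 0.295 and 0.545 in the 0.7 MAC libraries. In control it was 0.725, 0.743 and 0.690. Crh reads outnumbered Crhbp reads in all 3 of the 2.0 MAC libraries and in none of the other 6. The ratio was 3.72-fold higher at 2.0 MAC than at 0.7 MAC and 2.03-fold higher than in control, and at 0.7 MAC it was 0.547 of the control ratio. Each of these 3 differences had p = 0.1 in a two-sided exact permutation test, the smallest that 3 against 3 libraries can give, or an adjusted p of 0.18 over the 9 ratio tests. The groups of the ratio did not overlap in any of the comparisons.

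**Figure D3:**
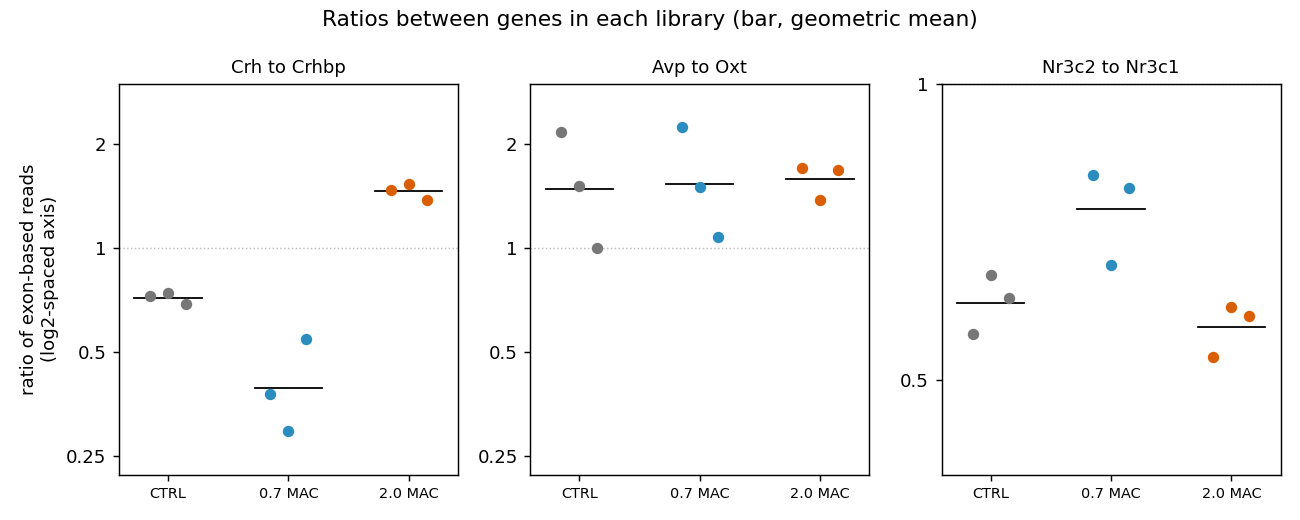
Ratio of exon-based reads of Crh to Crhbp, Avp to Oxt and Nr3c2 to Nr3c1 in each library (vertical axes with log2 spacing, of different range), by group from control to 2.0 MAC; bars are geometric means. Crh to Crhbp lies above 1 in the 2.0 MAC libraries alone, and Avp to Oxt has means of 1.49, 1.54 and 1.58 in the groups from left to right.

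Crhr1 (ENSMUSG00000018634, chromosome 11, 104132855 to 104175523) encodes the receptor through which Crh acts on pituitary corticotrophs and on many forebrain neurons. It had 16.1, 11.5 and 19.3 CPM in the 2.0 MAC libraries, against 18.7, 20.7 and 12.4 CPM in the 0.7 MAC libraries. Control had 14.4, 14.2 and 16.4 CPM. All groups overlapped, and the log2 fold change was -0.13 between 2.0 MAC and 0.7 MAC (interval -0.53 to 0.27, adjusted p = 0.713). It was 0.07 between 2.0 MAC and control (interval -0.34 to 0.48) and 0.20 between 0.7 MAC and control (interval -0.20 to 0.60). Most Crhr1 reads lay in introns, with 969 intron reads of 1267 in the 2.0 MAC group, 1313 of 1655 in the 0.7 MAC group and 783 of 1072 in control. The intron reads of the 0.7 MAC libraries (407, 599 and 307) were all above those of control (242, 258 and 283), but the change was not called (log2 0.69, SE 0.23, adjusted p = 0.111 over 16142 genes with intron reads).

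Avp (ENSMUSG00000037727, chromosome 2, 130580620 to 130582554, minus strand) and Oxt (ENSMUSG00000027301, chromosome 2, 130576173 to 130577054, plus strand) are neighbours that point toward each other, with 3565 bases between their 3′ ends. Each is made largely by its own set of magnocellular neurons. Avp had 16.1, 14.04 and 15.6 CPM in the 2.0 MAC libraries, against 11.6, 7.34 and 6.59 CPM in the 0.7 MAC libraries. The groups did not overlap, and the log2 fold change was 0.83 (SE 0.22, adjusted p = 0.0148). This call was lost without 0.7 MAC replicate 3 (0.67, adjusted p = 0.0540) and without 2.0 MAC replicate 1 (0.79, adjusted p = 0.0570), and with the highest 0.7 MAC library, replicate 1, left out the log2 fold change was 1.13. The control libraries had 8.19, 8.34 and 4.43 CPM, all below the 2.0 MAC libraries. Against control, Avp was 2.19-fold higher at 2.0 MAC (log2 1.13, SE 0.22, adjusted p = 0.00371), a call kept with each library left out in turn (0.88 to 1.29). At 0.7 MAC it overlapped control (0.30, interval -0.21 to 0.82, adjusted p = 0.606).

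Oxt had 9.46, 10.2 and 9.25 CPM in the 2.0 MAC libraries, against 5.15, 4.89 and 6.13 CPM in the 0.7 MAC libraries. The 2.0 MAC libraries lay close together and above all others, with a log2 fold change of 0.83 (SE 0.18, adjusted p = 0.00410). In control it had 3.77, 5.51 and 4.43 CPM. Oxt was 2.10-fold higher at 2.0 MAC than in control (log2 1.07, SE 0.18, adjusted p = 0.00129), and 0.7 MAC and control overlapped (0.24, interval -0.19 to 0.66, adjusted p = 0.635). The ratio of Avp to Oxt reads was 1.71, 1.38 and 1.69 in the 2.0 MAC libraries, against 2.24, 1.5 and 1.08 at 0.7 MAC and 2.17, 1.51 and 1.00 in control. Its groups overlapped in every comparison, and the exact permutation p lay between 0.8 and 1 (adjusted over the 9 ratio tests, 0.9 to 1). Across the 9 libraries the 2 genes had a Pearson r of 0.79 on log2 CPM, and of -0.11 within groups, over points that share library, depth and tissue piece.

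Oxtr (ENSMUSG00000049112, chromosome 6, 112473683 to 112489943) encodes the oxytocin receptor. Its levels varied widely within groups, with 3.52, 6.46 and 4.97 CPM in the 2.0 MAC libraries, against 8.36, 4.402 and 6.74 CPM in the 0.7 MAC libraries. Control had 10.2, 6.93 and 5.02 CPM, and all groups overlapped. The log2 fold change was -0.38 between 2.0 MAC and 0.7 MAC (interval -1.0 to 0.23, adjusted p = 0.449), -0.54 between 2.0 MAC and control (interval -1.15 to 0.07, adjusted p = 0.287) and -0.15 between 0.7 MAC and control (interval -0.73 to 0.42, adjusted p = 0.851). A change of this size was not settled at 19 to 62 reads per library and with this spread within groups. The parts of depth and of spread were not tested.

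Trh (ENSMUSG00000005892, chromosome 6, 92242061 to 92244650) was lowest in the 0.7 MAC group. It had 10.6, 10.3 and 8.15 CPM in the 2.0 MAC libraries, against 6.82, 5.22 and 6.89 CPM in the 0.7 MAC libraries. The groups did not overlap, but the test gave an adjusted p of 0.0600 (log2 fold change 0.60, interval 0.17 to 1.03). The control libraries had 8.85, 12.8 and 8.12 CPM, above the 0.7 MAC libraries (-0.64 for 0.7 MAC over control, interval -1.07 to -0.21, adjusted p = 0.122) and overlapping those of 2.0 MAC (-0.04, interval -0.45 to 0.36, adjusted p = 0.934). The first of these comparisons passed the threshold under 6 of 17 alternatives, among them upper-quartile scaling (adjusted p = 0.0433), no filter (0.0195) and leaving out 2.0 MAC replicate 3 (0.0466). The second passed under 1, no filter (0.0236).

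Ghrh (ENSMUSG00000027643, chromosome 2, 157329497 to 157347506) was nearly unread. It had 2, 1 and 4 exon-based reads in the 2.0 MAC libraries, against 1, 1 and 2 at 0.7 MAC and 0, 4 and 3 in control, and did not pass the filter. Pooled over a group this is 0.372 CPM at 2.0 MAC (exact 95% Poisson interval 0.149 to 0.766), against 0.202 CPM at 0.7 MAC (0.0549 to 0.516) and 0.364 CPM in control (0.146 to 0.750). The intervals cover counting error only and overlap, so no difference was detectable at this depth.

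Nr3c1 (ENSMUSG00000024431, chromosome 18, 39410545 to 39491301), the glucocorticoid receptor, varied little, with an SD of 0.364 on a mean of 7.12 RPKM over the 9 libraries. It had 146, 144 and 156 CPM in the 2.0 MAC libraries, against 147, 158 and 159 CPM in the 0.7 MAC libraries, with a log2 fold change of -0.05 (interval -0.19 to 0.08, adjusted p = 0.645). Control had 178, 166 and 154 CPM. The exon-based change between 2.0 MAC and control was not called (-0.15, interval -0.29 to -0.02, adjusted p = 0.143). Intron reads of Nr3c1, which in a total RNA library come largely from unspliced transcripts, were lower at 2.0 MAC than in control (969, 1149 and 1287 reads at 2.0 MAC, against 1564, 1510 and 1435 reads). Their log2 fold change was -0.30 (SE 0.08, adjusted p = 0.0264). It was the only call among the 5 of the 10 genes with enough intron reads in any of the 3 comparisons, where 5.92% of genes were called lower on intron reads between 2.0 MAC and control.

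Nr3c2 (ENSMUSG00000031618, chromosome 8, 76899442 to 77245012), the mineralocorticoid receptor, which binds corticosterone with higher affinity than Nr3c1 does, was lower at 2.0 MAC than at 0.7 MAC. It had 77.2, 85.5 and 90.6 CPM in the 2.0 MAC libraries, against 119, 103 and 125 CPM in the 0.7 MAC libraries. The groups did not overlap, and the log2 fold change was -0.45 (SE 0.08, adjusted p = 0.00109). Control had 98.9, 106 and 93.1 CPM, above the 2.0 MAC libraries without being called different from them (-0.23, interval -0.40 to -0.06, adjusted p = 0.0928), and overlapping those of 0.7 MAC (0.22, interval 0.05 to 0.39, adjusted p = 0.177). The change was on exon-based reads. Introns held 88.7% of the Nr3c2 reads in control, and intron reads gave a log2 fold change of -0.10 between 2.0 MAC and 0.7 MAC (SE 0.07, adjusted p = 0.465), while all gene reads together gave -0.18 (adjusted p = 0.0744). There were 0.113 to 0.123 exon-based reads per intron read in the 2.0 MAC libraries, against 0.125 to 0.155 in the 0.7 MAC libraries, which did not overlap (log2 difference -0.26, two-sided exact permutation p = 0.1, adjusted p = 0.3 over 9 such tests, added after the values were seen). Among the 9 tests, Crhr1 between 0.7 MAC and control (log2 difference -0.48) and Nr3c1 between 2.0 MAC and control (0.22) also did not overlap. Both had the same p and adjusted p. A small nuclear RNA gene lies within Nr3c2 on the same strand, and 2 other genes overlap it on the opposite strand. Whether the counting used the strand is not stated, so reads from opposite strands may not have been told apart.

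The ratio of the 2 receptors was compared in the same way. There were 0.527, 0.592 and 0.580 Nr3c2 reads per Nr3c1 read in the 2.0 MAC libraries, against 0.807, 0.655 and 0.784 in the 0.7 MAC libraries. The groups did not overlap, with a ratio 0.759 times as high at 2.0 MAC (exact permutation p = 0.1, adjusted p = 0.18). The control ratios of 0.556, 0.638 and 0.605 lay below those of 0.7 MAC and overlapped those of 2.0 MAC. On all gene reads the difference between 2.0 MAC and 0.7 MAC was smaller and the groups overlapped (0.939 times).

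Markers of brain regions and of oligodendrocytes moved between the same groups. The 22 hypothalamus markers summed to 124.6 to 131.7 CPM in the 2.0 MAC libraries, against 90.7 to 103 CPM in the 0.7 MAC libraries and 110 to 119 CPM in control. Of the 12 that passed the filter, 4 (Pmch, Lhx9, Cartpt and Otp) were higher at 2.0 MAC than at 0.7 MAC. The 2 that were lower were Npy (log2 fold change -0.92, adjusted p = 0.0143) and Lhx6 (-0.89, adjusted p = 0.00189). Expression outside the hypothalamus was not tested for any of the 12, and Six3 is also among the striatum markers. Against control, 1 was higher and 2 were lower at 2.0 MAC, and 0 were called at 0.7 MAC. A subset of 13 of these genes, Pmch, Agrp and 11 transcription factors, was listed for scaling and leaves out, among others, Npy, Lhx6, Lhx9 and Cartpt. It summed to 44.5 to 48.4 CPM at 2.0 MAC, against 22.7 to 29.4 CPM at 0.7 MAC and 30.6 to 37.3 CPM in control, and 4 of the 13 passed the filter, with 2 called higher between 2.0 MAC and 0.7 MAC. Hmx2 had no reads in control or at 0.7 MAC, and Hmx3 had none at 0.7 MAC.

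The 14 cortex and hippocampus markers summed to 670 to 775 CPM at 2.0 MAC, against 1230 to 1472 CPM at 0.7 MAC and 912 to 1341 CPM in control, and 10 of the 14 were lower at 2.0 MAC than at 0.7 MAC. The 12 striatum markers summed to 476 to 561 CPM at 2.0 MAC, against 944 to 1486 CPM at 0.7 MAC and 1201 to 1509 CPM in control, and 11 of the 12 were lower at 2.0 MAC than at 0.7 MAC and than in control. The 15 hindbrain markers summed to 337 to 381 CPM at 2.0 MAC, against 196 to 212 CPM at 0.7 MAC and 223 to 311 CPM in control, and of 9 tested 6 were higher at 2.0 MAC than at 0.7 MAC. The 8 oligodendrocyte markers summed to 9310 to 11167 CPM at 2.0 MAC, against 6879 to 8110 CPM at 0.7 MAC and 8534 to 9792 CPM in control, and all 8 were higher at 2.0 MAC than at 0.7 MAC. Both hypothalamus marker sums were lower at 0.7 MAC than in control without overlap. In that comparison Crh (log2 fold change -0.53) and Trh (-0.64) also lay wholly lower. Avp (0.30) and Oxt (0.24) overlapped control, and none of these hormone genes was called. In bulk tissue, fewer cells of a type and less RNA per cell cannot be told apart. The part of these lists in the results was not tested.

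Scaling each library to its hypothalamus marker reads gave results against 0.7 MAC that depended on the list, and the higher calls of Avp and Oxt against control were kept with each list. With the 13 markers, Avp had a log2 fold change of 0.00 between 2.0 MAC and 0.7 MAC (adjusted p = 0.988), Oxt 0.01 (adjusted p = 0.964) and Crh 0.20 (adjusted p = 0.496). Between 2.0 MAC and control it was 0.65 for Avp (adjusted p = 0.00824) and 0.59 for Oxt (adjusted p = 0.0278). Avp was also called higher on this scale at 0.7 MAC than in control (0.65, adjusted p = 0.0281). Of 17 alternatives, this was the 1 that called Avp in that comparison, and Oxt was called there in 0. Crhbp fell further, by 1.66 on the log2 scale between 2.0 MAC and 0.7 MAC (adjusted p = 6.91e-09), and Nr3c2 had -1.28. This scaling moves the median of all genes by -0.83 between 2.0 MAC and 0.7 MAC, by -0.49 between 2.0 MAC and control and by 0.34 between 0.7 MAC and control. The fold changes are therefore relative to those markers and not to the typical gene. It rests on 139 to 322 reads per library, of which Pmch, itself a neuropeptide gene, gave 56.8%, and the tests do not include the counting error of the scale. With Pmch and Agrp left out, an alternative added after the data were seen that rests on 64 to 131 reads, Avp had 0.17, Oxt 0.19 and Crh 0.38 between 2.0 MAC and 0.7 MAC (adjusted p = 0.446, 0.466 and 0.219). Avp and Oxt then had 0.74 and 0.68 between 2.0 MAC and control (adjusted p = 0.00437 and 0.0198). With all 22 markers, also added after the data were seen and resting on 556 to 902 reads, Crh and Oxt were still called between 2.0 MAC and 0.7 MAC, at 0.64 and 0.45 (adjusted p = 0.0236 and 0.0414), while Avp had 0.45 (adjusted p = 0.0714). Against control Avp had 0.98 and Oxt 0.91 at 2.0 MAC on that scale (adjusted p = 0.00391 and 0.00239). It moves the median of all genes by -0.38 and -0.16 in these comparisons.

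**Figure D4:**
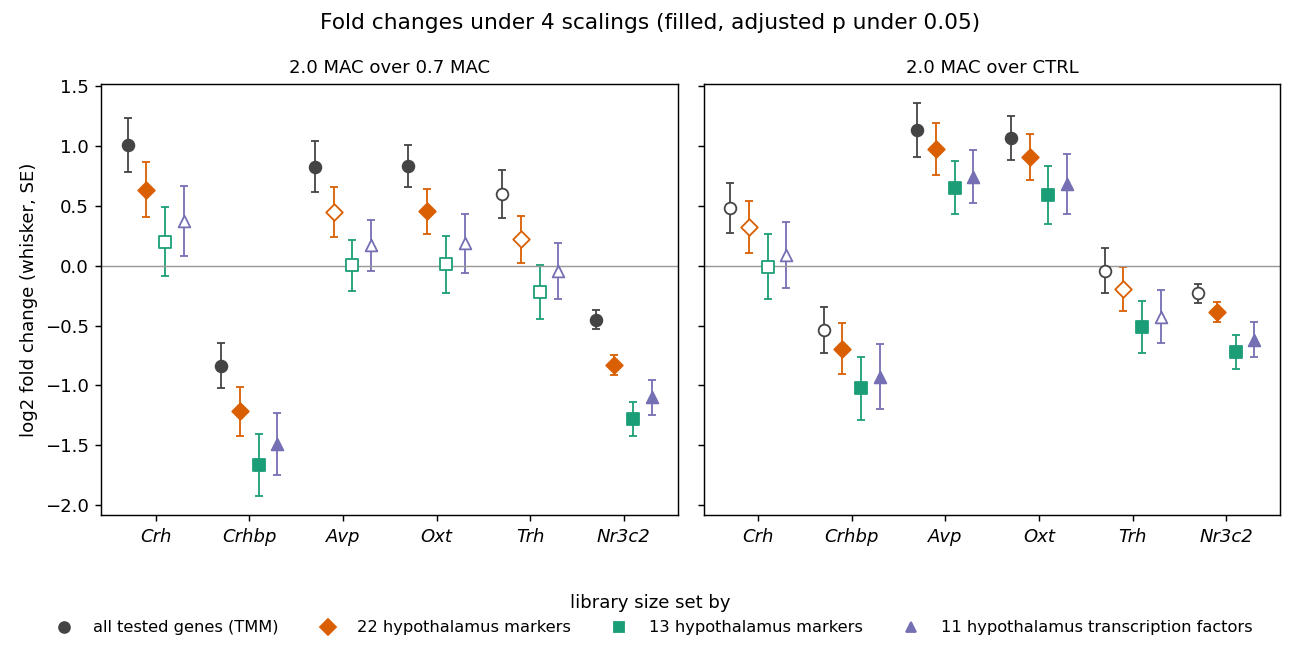
Log2 fold changes of 6 genes (vertical axis, whiskers are the SE) with library sizes set by all tested genes, by 22 hypothalamus markers, by a subset of 13 of them or by the 11 transcription factors in that subset; filled points have an adjusted p under 0.05. Between 2.0 MAC and 0.7 MAC, Avp lies at 0.83, 0.45, 0.00 and 0.17 under the 4 scalings, and between 2.0 MAC and control at 1.13, 0.98, 0.65 and 0.74.

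Pituitary markers bear on Crhr1 and on any pituitary tissue in the pieces. Of 9 such markers, Gh, Cga, Tshb and Fshb had no reads in control, and the list summed to 0.552 to 8.07 CPM at 2.0 MAC, against 2.76 to 9.46 CPM at 0.7 MAC and 0.983 to 1.10 CPM in control. The 5 blood markers summed to 5.19 to 22.4 CPM at 2.0 MAC, against 5.67 to 37.9 CPM at 0.7 MAC and 3.46 to 7.86 CPM in control. The 1 tested pituitary marker, Gh, was called higher at 0.7 MAC than in control. With no reads in control and means of 4.91 CPM at 0.7 MAC and 2.49 CPM at 2.0 MAC, it passed the filter through the sevoflurane groups alone. That call is therefore not read as a result. Of 3 tested blood markers, 1 was higher at 0.7 MAC than in control and 1 was lower at 2.0 MAC than at 0.7 MAC. The part of both lists in the results was not tested.

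Other genes of the same pathways, listed by role, were counted in the same fits. Of 11 further genes of the Crh and vasopressin system 5 passed the filter, and only Adcyap1r1, the receptor of the peptide PACAP, was called, higher at 2.0 MAC than at 0.7 MAC (log2 fold change 0.19, SE 0.06, adjusted p = 0.0391). Pomc, the precursor of corticotropin, had 0.92 between 2.0 MAC and control (adjusted p = 0.118) and also between 0.7 MAC and control (adjusted p = 0.207). Pomc is itself among the hypothalamus markers. Corticotropin comes from the pituitary, and the pituitary marker sum was above control at 0.7 MAC and varied widely at 2.0 MAC. Most of that sum was Gh, with 4.91 of a mean of 6.53 CPM at 0.7 MAC and 2.49 of 3.43 CPM at 2.0 MAC. Tbx19, another pituitary marker, had a mean of 0.105 CPM in control and no reads at 0.7 MAC or 2.0 MAC. The parts of pituitary and of hypothalamus tissue in the Pomc values were not tested. Of 5 genes tied to oxytocin release or peptide breakdown, Cd38, an enzyme needed for oxytocin secretion in mice, was higher at 2.0 MAC than at 0.7 MAC (0.55, adjusted p = 0.00413) and than in control (0.46, adjusted p = 0.0196). The other 4 (Lnpep, Mme, Ace and Prep) were not called. Of 4 tested transcription factors of neuroendocrine neurons, Otp, which the neurons of Crh, Avp, Oxt and Trh need for their development, was higher at 2.0 MAC than at 0.7 MAC (0.66, adjusted p = 0.0219). Otp is also among the hypothalamus markers.

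In the thyroid axis, 3 of 6 tested genes were lower at 2.0 MAC than at 0.7 MAC and 0 were higher, with a median log2 fold change of -0.32 over the 6. They were Trhde, the ectoenzyme that degrades Trh (-0.47, adjusted p = 0.0100), and the receptors Thrb (-0.38, adjusted p = 0.00614) and Thra (-0.35, adjusted p = 0.00104). Against control 3 were lower at 2.0 MAC, with Dio2, which makes the active hormone, in the place of Trhde (-0.34, adjusted p = 0.0447). Trhde was higher at 0.7 MAC than in control (0.58, adjusted p = 0.0213). In the growth hormone axis, Sst, the somatostatin gene, which is also expressed by cortical and striatal interneurons, was lower at 2.0 MAC than at 0.7 MAC (-0.53, adjusted p = 0.00149) and than in control (-0.50, adjusted p = 0.0036). Ghsr, the ghrelin receptor, was higher at 2.0 MAC than at 0.7 MAC (1.35, adjusted p = 0.0138). Against control Ghsr was not called at 2.0 MAC (0.79, adjusted p = 0.147) or at 0.7 MAC (-0.56, adjusted p = 0.535). None of the 8 tested genes of the gonadal and prolactin axis was called in the 3 comparisons.

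Among 9 tested partners of the corticosteroid receptors, Fkbp5, a chaperone that restrains the glucocorticoid receptor and is itself induced by it, was higher than in control at 0.7 MAC (0.53, adjusted p = 0.0143) and at 2.0 MAC (0.40, adjusted p = 0.0184). The coregulators Ncor1 (-0.28), Ncoa2 (-0.19) and Ncoa1 (-0.18) were lower at 2.0 MAC than at 0.7 MAC, and the heat shock protein partners were not called. Of 12 genes that corticosteroids are known to induce, 8 were higher at 2.0 MAC than in control (median log2 fold change 0.62, against 0.00 over all tested genes) and 4 at 0.7 MAC (median 0.43), while 1 was higher and 1 lower between 2.0 MAC and 0.7 MAC. Cdkn1a, a cell cycle inhibitor, had 1.34 at 2.0 MAC and 1.05 at 0.7 MAC against control, and Tsc22d3, which encodes the protein GILZ, had 0.63 (adjusted p = 0.000423) and 0.36 (adjusted p = 0.0651). Several of the 12, such as Dusp1 and Nfkbia, also respond to other stimuli.

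The genes whose log2 CPM most resembled each hormone gene over the 9 libraries were named by Pearson r among 14134 genes, as a description. For Crh they were Disc1 (r = 0.95), Hoxc4 (0.95) and Kcnip1 (0.95), and Hoxc4 is also among the hindbrain markers. For Avp they were Scd3 (0.95), Rabgef1 (0.95) and Gas2 (0.94), and for Oxt Clic4 (0.97), Gp5 (0.97) and Slc25a25 (0.96). For Trh they were Ncam1, Glud1 and Slc22a23 (each 0.96). Among the 10 genes themselves, the lowest r was -0.82, both between Crh and Crhbp (0.18 within groups) and between Crhbp and Oxt (-0.66 within groups), and the highest was 0.84, between Crhbp and Nr3c2 (0.05 within groups).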

How the data were processed

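Total RNA of mouse brain tissue, depleted of ribosomal RNA, was sequenced with a kit that keeps the strand. Mapping to GRCm38/mm10 and counting per gene were done by the authors with CLC Genomics Workbench, and the annotation release was not stated. The deposited counts are whole-number exon-based, intron and total gene reads, not normalized, and the authors' RPKM is exon reads scaled by exon length and mapped reads. The table also holds the authors' fold changes and p-values, which were not used. Of 198 per-sample columns 155 were not used.

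Exon-based reads were tested in edgeR 4.0.16 (R 4.3.3) with TMM factors, on the 14140 genes that passed filterByExpr (minimum count 10). All 9 libraries entered one quasi-likelihood fit with group as the factor, with Benjamini-Hochberg adjustment over all tested genes in each comparison. Ratios were compared by two-sided exact permutation tests. An item of a pathway list is not reported here. The genes and lists were chosen with earlier results of these data known. The text names the 10 genes, up to 4 genes of each pathway list with the smallest adjusted p in a comparison, and for each tested hormone gene the 3 genes of at least 1 CPM with the highest r; not all of them are printed, and the choice among them was made with their values known. Depth was 5321491 to 7178568 exon-based reads per library, and no library was a copy of another (chi-square per degree of freedom 1.56 to 5.00 within groups). Alternatives were DESeq2 1.42.0, other scalings, no filter, 6 libraries per fit, a replicate block, total gene reads, limma 3.58.1 on log2(RPKM + 0.1) and log2(RPKM + 1), a 2-fold threshold and each library left out in turn.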

Additional observations from a re-analysis of the deposited data

How the results depend on the processing

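Of 459 alternative fold changes of the 9 tested genes, 387 kept their direction and their side of the threshold, 23 changed sign with neither value called, 10 lost a call and 39 gained one, and 0 called values changed sign. Crhbp between 2.0 MAC and 0.7 MAC and Avp and Oxt between 2.0 MAC and control were called under all 17 alternatives. Marker scalings among these used hypothalamus lists alone, and no markers of another region. Scaled to the 13 hypothalamus markers, 0 of the 9 genes were higher and 5 lower between 2.0 MAC and 0.7 MAC (1 and 12782 of all genes), 4 were higher between 0.7 MAC and control (4784 higher and 18 lower of all genes), and 5 were lower between 2.0 MAC and control (67 higher and 9534 lower of all genes). Scaled to the 11 transcription factors among them the counts were 0 and 5 (1 and 11598 of all genes), 1 higher (1342 and 16) and 4 lower (80 and 6813). Scaled to all 22 hypothalamus markers they were 2 and 5 (48 and 8595 of all genes), 1 higher (3880 and 39) and 2 higher and 3 lower (129 and 2522). At a fold change of at least 2 as well, 1 gene was higher (Crh) and 0 were lower between 2.0 MAC and 0.7 MAC (18 and 186 of all genes), with 39 and 7 of all genes for 0.7 MAC over control and 54 and 138 for 2.0 MAC over control. On total gene reads 1 gene (Crhbp) was lower between 2.0 MAC and 0.7 MAC, where 1069 of all genes were higher and 1255 lower. On these reads 1 gene (Nr3c1) was lower between 2.0 MAC and control, where 794 of all genes were higher. The main fit, on exon-based reads, called 908 of all genes lower in that comparison. Between 0.7 MAC and control 229 and 348 of all genes were called on total gene reads.

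Without the filter, Nr3c2 was higher and Trh lower between 0.7 MAC and control, 1 gene each (586 and 327 of all genes). Nr3c2 was then the 1 gene lower between 2.0 MAC and control, where 717 of all genes were higher. With 6 libraries per fit 1 gene (Nr3c2) was again lower between 2.0 MAC and control. The main fit called 908 of all genes (6.42%) lower in that comparison. Between 0.7 MAC and control 79 and 58 of all genes were called with 6 libraries per fit. Limma on log2(RPKM + 0.1) called 1705 and 723 of all genes between 2.0 MAC and 0.7 MAC, 27 and 21 for 0.7 MAC over control, and 810 and 494 for 2.0 MAC over control, and on log2(RPKM + 1) it called 1739 and 714, 27 and 20, and 826 and 486. With a replicate block all counts of the 9 genes stood as given, and 46 and 30 of all genes were called between 0.7 MAC and control. The replicate numbers gave no sign of pairing (0 of 9 same-numbered pairs had a correlation over 0.1), which 3 libraries per group cannot exclude. With each library left out, 2 to 4 of the 9 genes were higher between 2.0 MAC and 0.7 MAC and the other counts of the 9 stood. Of all genes, 497 to 717 were then higher and 866 to 1136 lower between 2.0 MAC and 0.7 MAC, 30 to 306 and 20 to 224 for 0.7 MAC over control, and 189 to 381 and 508 to 860 for 2.0 MAC over control. The causes of these shifts were not tested. Crh, Crhbp, Oxt, Trh, Avp and Oxtr rest on 13 to 113 reads per library, which limits their precision.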
